A study of Mus musculus with 36 samples.

Results

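The AP-1 genes are Fos, Fosb, Fosl1, Fosl2, Jun, Junb, Jund and Atf3. They were taken by symbol from a table of RNA levels in the anterior cingulate cortex (aCC), where they make up 8 of 52636 genes. None was left out for its values, but the list was chosen with earlier results of these data known. Its counts beside all genes are therefore a description. All 8 passed the filter on low values, which left 25572 genes for testing.

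AP-1 is a transcription factor built as a dimer of basic leucine zipper (bZIP) proteins. A Fos protein pairs with a Jun protein, Jun proteins also pair among themselves, and Atf3 pairs with Jun proteins. Fos, Fosb and Junb are immediate-early genes of neurons: calcium entry and kinase cascades switch on their transcription within minutes through factors such as CREB and SRF that are already in place, and the RNA is soon lost again. Jund is made more steadily, Fosl1 and Fosl2 tend to follow later, and Atf3 is known for its induction by injury and cell stress.

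RNA was sequenced from punches of the right aCC of 36 female mice aged 8 to 11 weeks, with 1 library per mouse. WT vehicle held 8 mice, Brd1+/- vehicle 9, WT IMN 10 and Brd1+/- IMN 9, where IMN is imipramine, a tricyclic antidepressant, at 10 mg/kg. Brd1+/- mice (strain label C57BL/6NTac-Brd1) carry a deletion in 1 allele of Brd1 in every cell, WT mice were their litter-matched controls, and all mice of the 4 groups were injected on 2 days and went through a tail suspension test, an open field and a forced swim. By the study's methods the brains were taken 1 h after the swim, and no mouse without the swim was analysed here, so a level cannot be split into what was there before the swim and what came with it. The punches are bulk tissue.

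The values are TPM, transcripts in a fixed total, which are scaled to gene length and library total and can therefore be compared between genes. Brd1, the gene targeted in the Brd1+/- mice, ran from 13.5 to 20.9 TPM in Brd1+/- mice and from 17.9 to 31.9 TPM in WT mice. Its log2 difference between genotypes over both treatments was -0.54 (SE 0.067, limma adjusted p = 2.83e-05). Markers of cortical excitatory neurons reached a median of 1 TPM in every group (7 of 7 genes). Several libraries stood apart in markers of other cells. In WT vehicle replicate 1 the 7 oligodendrocyte markers summed to 2625 TPM, against 171 to 878 TPM in the other 7 libraries of its group. In Brd1+/- vehicle replicate 6 the choroid plexus markers summed to 3902 TPM and the striatal markers to 951 TPM, where the other Brd1+/- vehicle libraries reached at most 6.04 and 154 TPM. Oligodendrocyte sums were also high in WT IMN replicate 7 (3230 TPM, with at most 1264 TPM in the rest of its group) and Brd1+/- IMN replicate 6 (3161 TPM), and Brd1+/- IMN replicate 1 had a choroid plexus sum of 40.1 TPM. Leaving out WT vehicle replicate 1 changed calls, which are given with and without it. Leaving out any of the other 4 alone changed no call of the 8 genes for IMN against vehicle.

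The genes lie apart on 7 chromosomes of GRCm38, and all are protein coding: Fos at chr12:85473890-85477273 (plus strand), Fosb at chr7:19302696-19310051 (minus), Fosl1 at chr19:5447547-5455946 (plus), Fosl2 at chr5:32135801-32157842 (plus), Jun at chr4:95049034-95052222 (minus), Junb at chr8:84974484-84978718 (minus), Jund at chr8:70698949-70700616 (plus) and Atf3 at chr1:191170296-191218039 (minus). RefSeq promoters (GRCm38.p6) were found for 7 of the 8, with none for Fosl1. For Fos, Fosb, Jun and Junb the RefSeq start lies within 30 bases of the annotated gene start. The 120 bases before it are therefore shown for these 4. Each reads 5′ to 3′ on the strand of the gene. Capitals mark TGACG, the core of the cAMP response element bound by CREB and by some AP-1 dimers, searched on both strands.
Fos, chr12:85473770-85473889: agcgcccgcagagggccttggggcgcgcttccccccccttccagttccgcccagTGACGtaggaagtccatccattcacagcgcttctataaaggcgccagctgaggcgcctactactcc
Fosb, chr7:19310046-19310165: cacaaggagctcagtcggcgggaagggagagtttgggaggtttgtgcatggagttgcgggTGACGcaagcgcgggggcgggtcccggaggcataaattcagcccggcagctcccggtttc
Junb, chr8:84978749-84978868: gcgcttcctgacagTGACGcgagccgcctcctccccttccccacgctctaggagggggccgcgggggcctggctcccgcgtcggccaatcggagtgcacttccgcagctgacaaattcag
Jun, chr4:95052223-95052342: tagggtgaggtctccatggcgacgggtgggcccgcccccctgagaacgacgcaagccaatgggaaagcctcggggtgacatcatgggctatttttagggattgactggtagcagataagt

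The core stands once in the windows of Fos, Fosb and Junb, where it begins 66, 60 and 106 bases before the start. These letters are not in the window of Jun, which holds the similar letters tgacatca. It was also found once in the window of Atf3, 7 bases before a RefSeq start that lies inside the annotated gene, and not in those of Fosl2 and Jund, whose RefSeq starts lie 671 bases after and 1210 bases before the annotated start. Of 32446 promoter windows of this length, 11.7% hold the core. The full element TGACGTCA is in 1.25% of windows and the AP-1 element TGACTCA in 2.31%, and neither is in any of the 7 windows. A match in these letters is a description and not a site of binding. Whether the core goes with how the genes varied between mice was not tested.

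Junb RNA was the most abundant of the 8, with a mean of 144 TPM over all libraries (SD 37.9, n = 36). It was followed by Jund at 81.1 TPM, Fos at 51.6, Fosb at 31.5, Jun at 21.6, Fosl2 at 19.7, Fosl1 at 3.40 and Atf3 at 0.426 TPM. Most steps of this order held mouse by mouse: Junb lay above Jund in 34 of 36 libraries, Jund above Fos in 36, Fos above Fosb in 35, Fosl2 above Fosl1 in 36 and Fosl1 above Atf3 in 36. Fosb lay above Jun in 26 of 36 libraries. Jun and Fosl2 did not differ beyond their spread, with Jun above Fosl2 in 21 of 36. Together the 8 genes summed to between 206 and 546 TPM per library, and Junb and Jund made up 63.7% of that sum on average (SD 3.46, n = 36), with group means from 62.4% to 64.6%. Atf3 was listed at 0 in 3 of 36 libraries.

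**Figure D1:**
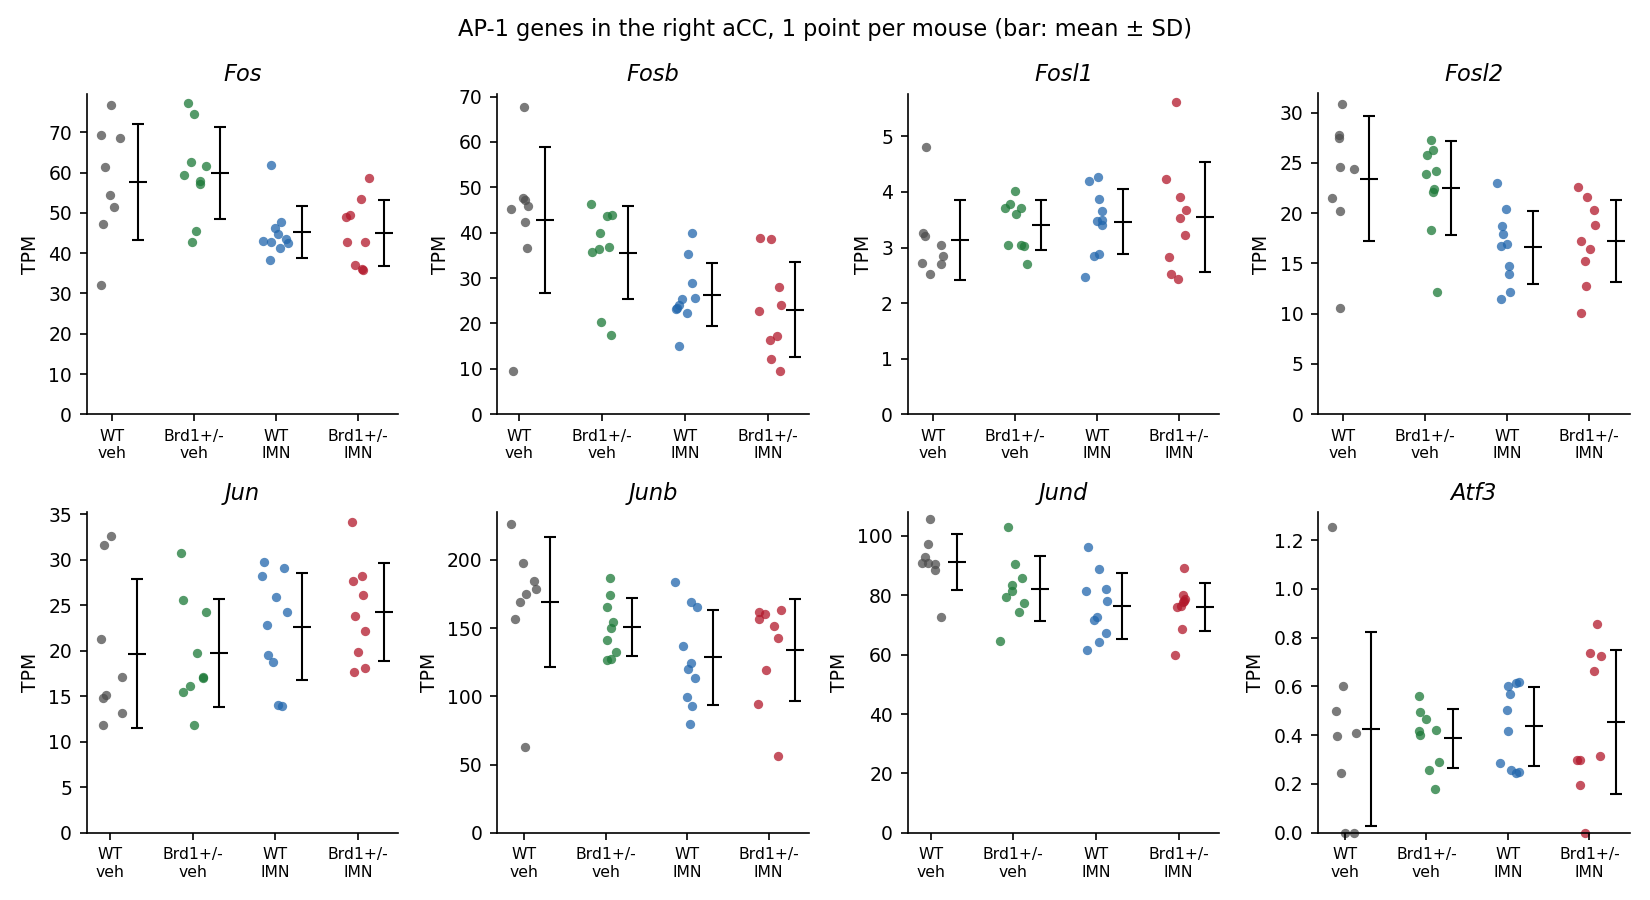
TPM (y axis, starting at 0) of the 8 AP-1 genes in the 4 groups (x axis), with 1 point per mouse and a bar for the mean ± SD. For Fos and Fosl2, 18 of 19 IMN points sit under the mean of the vehicle group of the same genotype, and a single WT vehicle library is the lowest of its group for Fos, Fosb, Fosl2, Junb and Jund.

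IMN was compared with vehicle in mice that all went through the swim. The study reports that Brd1+/- mice given IMN at this dose were less immobile in the swim than vehicle Brd1+/- mice. They also moved less in the open field. The drug and the altered behavior before the brains were taken cannot be told apart here. Over both genotypes, Fos, Fosb, Fosl2, Junb and Jund had negative differences and Fosl1, Jun and Atf3 positive ones. Of all 25572 genes tested, 13051 had negative differences. None of the 8 passed an adjusted p of 0.05 in the fit across all genes. The background there was 0.184% of genes called lower and 0.0899% called higher with IMN. Without adjustment, 5 of the 8 reached p under 0.05 as lower and 1 (Jun) as higher, against 5.48% and 3.90% of all genes. The median log2 difference of the 8 was -0.24, beside -0.00 for all genes tested. In bulk tissue, fewer cells of a type and less RNA per cell cannot be told apart.

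Fos, whose protein is the founding member of the family and a common label of recently active neurons, ran from 32.2 to 76.8 TPM (median 57.9) in WT vehicle and from 38.3 to 61.8 TPM (median 43.2) in WT IMN. Brd1+/- mice had 42.7 to 77.4 TPM (median 59.5) with vehicle and 35.9 to 58.8 TPM (median 42.9) with IMN. The groups overlapped, but 18 of 19 IMN values lay under the mean of vehicle mice of the same genotype (their own vehicle mean, below), with an SD of 6.39 and 8.19 TPM in the IMN groups against 14.4 and 11.4 TPM in the vehicle groups (WT and Brd1+/-). The log2 difference was -0.36 over both genotypes (SE 0.091, 95% interval -0.54 to -0.18), about 0.779 of the vehicle level, with a limma adjusted p of 0.0696 and rank 118 of 25572 genes by p. It was -0.40 in Brd1+/- mice (SE 0.12, exact permutation p = 0.00720, two-sided) and -0.32 in WT mice (SE 0.13, exact permutation p = 0.0399, two-sided). Of 37 fits over both genotypes with libraries left out, Fos passed 0.05 in 5, and the adjusted p reached up to 0.126. It passed without WT vehicle replicate 1 (adjusted p = 0.00741) and without Brd1+/- vehicle replicate 5 (0.0434). The same held without WT IMN replicate 6 (0.0452) and without Brd1+/- IMN replicate 7 (0.0426). The remaining pass left out both WT vehicle replicate 1 and Brd1+/- vehicle replicate 6 (0.00330), a pair chosen after seeing the data. Of 10 alternative settings 1 passed, with adjusted p up to 0.128 in the others. That setting was array weights (0.0249), which weigh libraries by their residual spread in these data.

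Fosb, which encodes FosB and the truncated, long-lived ΔFosB, had the largest difference of the 8. In WT mice it ran from 9.60 to 67.8 TPM (median 45.5) with vehicle and from 15.1 to 39.9 TPM (median 24.7) with IMN. The values of Brd1+/- mice were 17.4 to 46.3 TPM (median 36.8) and 9.60 to 38.9 TPM (median 22.8). All but 1 of the WT vehicle libraries sat at 36 TPM or more, and 6 of the 8 lay above every WT IMN library, while replicate 1 lay below them all. Over both genotypes the log2 difference was -0.63 (SE 0.19, 95% interval -1.02 to -0.25), with 17 of 19 IMN libraries below their own vehicle mean and a limma adjusted p of 0.166. Fosb passed in 2 of the 37 fits with libraries left out (adjusted p up to 0.255) and in 1 of the 10 alternative settings (up to 0.231). Without WT vehicle replicate 1 the difference was -0.77 (adjusted p = 0.0120), and with array weights -0.70 (adjusted p = 0.0285). In WT mice it was -0.58 (SE 0.27, exact permutation p = 0.0613, two-sided), and without that library -0.86 with an adjusted p of 0.0462, the single call among the 8 within a genotype over all alternatives run. In Brd1+/- mice it was -0.68 (SE 0.26, exact permutation p = 0.0277, two-sided).

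Fosl2, which encodes Fra-2, a Fos protein without the strong activation domain of Fos, followed the same course at lower levels. It ran from 10.6 to 30.9 TPM (median 24.4) in WT vehicle and from 11.4 to 23.0 TPM (median 16.8) in WT IMN. The range in Brd1+/- mice was 12.1 to 27.3 TPM (median 23.8) with vehicle and 10.0 to 22.6 TPM (median 17.3) with IMN. Here 5 of 8 WT vehicle and 5 of 9 Brd1+/- vehicle libraries lay above every IMN library of their genotype, while the groups overlapped in their lower parts. The log2 difference was -0.42 over both genotypes (SE 0.12, 95% interval -0.66 to -0.18, limma adjusted p = 0.129), and 18 of 19 IMN libraries lay below their own vehicle mean. The adjusted p was 0.0206 without WT vehicle replicate 1 and 0.0230 with array weights. Fosl2 passed in 2 of the 37 fits with libraries left out (adjusted p up to 0.212) and in 1 of the 10 alternative settings (up to 0.179). Within genotypes the difference was -0.46 in WT mice (SE 0.17, exact permutation p = 0.0265, two-sided) and -0.38 in Brd1+/- mice (SE 0.16, exact permutation p = 0.0397, two-sided).

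Fosl1, which encodes Fra-1, was low in all mice, from 2.44 to 5.61 TPM over the 36 libraries, with group medians between 2.94 TPM in WT vehicle and 3.60 TPM in Brd1+/- vehicle. Its log2 difference with IMN over both genotypes was 0.08 (SE 0.085, 95% interval -0.10 to 0.25, limma adjusted p = 0.851), so a difference as low as that of Fos or Fosl2 lies outside the interval. As a description, the mean of the summed 4 Fos genes was 127 TPM with vehicle (SD 35.8, n = 8) and 91.6 TPM with IMN (SD 14.6, n = 10) among WT mice. The same sums in Brd1+/- mice were 121 TPM with vehicle (SD 24.6, n = 9) and 88.9 TPM with IMN (SD 17.4, n = 9).

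**Figure D2:**
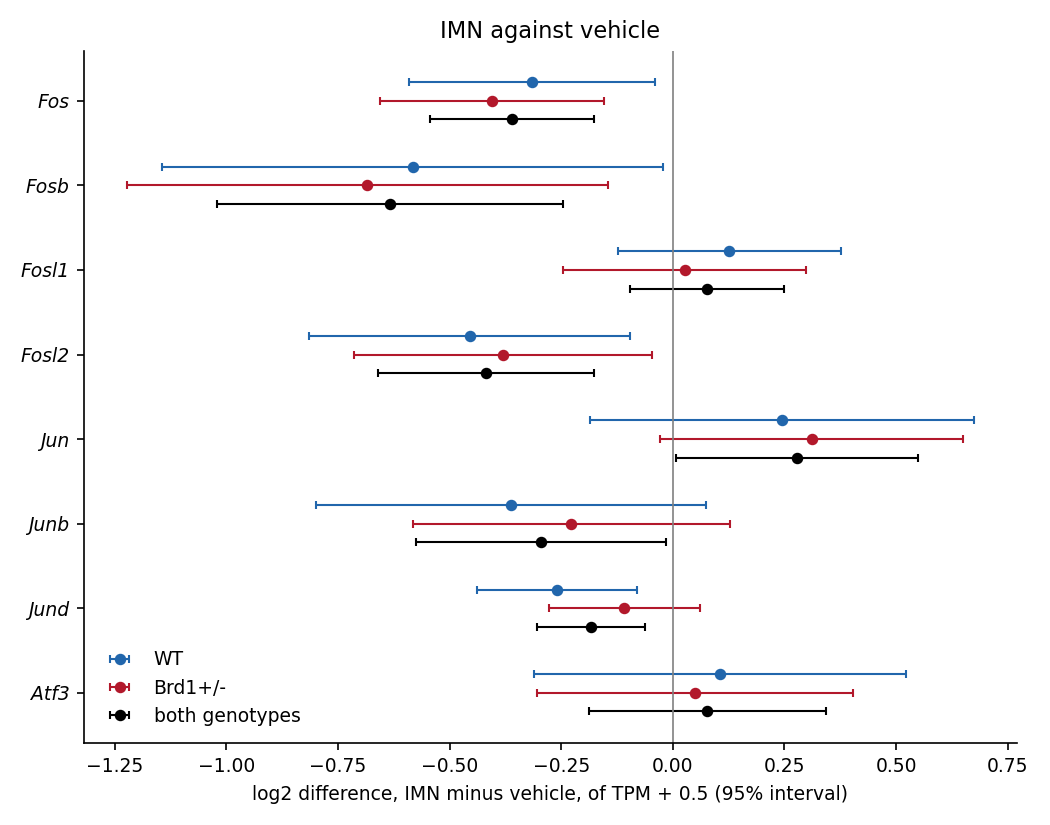
Log2 difference of TPM + 0.5, IMN minus vehicle (x axis), for the 8 AP-1 genes (y axis) in WT mice, in Brd1+/- mice and over both genotypes, with 95% intervals from limma that are not adjusted for the number of genes. The points for Fos, Fosb, Fosl2, Junb and Jund lie below 0 in all 3 comparisons, those of Fos, Fosb and Fosl2 from -0.32 to -0.68. The points for Fosl1, Jun and Atf3 lie above 0 in each.

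Among the Jun genes, Jun itself, the founding member and a common partner of Fos, did not share the sign of Fos. It ran from 11.8 to 32.5 TPM (median 16.1) in WT vehicle and from 13.9 to 29.7 TPM (median 23.5) in WT IMN. Brd1+/- values ran from 11.8 to 30.7 TPM (median 17.1) with vehicle and from 17.7 to 34.1 TPM (median 23.8) with IMN. The ranges overlapped nearly throughout, while in Brd1+/- mice all 9 IMN libraries lay above the vehicle median. The log2 difference over both genotypes was 0.28 (SE 0.13, 95% interval 0.01 to 0.55, limma adjusted p = 0.510), with 13 of 19 IMN libraries above their own vehicle mean. By exact permutation, two-sided, p was 0.0918 in Brd1+/- mice for a difference of 0.31 (SE 0.16) and 0.278 in WT mice for 0.25 (SE 0.21).

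Junb, an immediate-early Jun protein that activates more weakly than Jun at many sites, ran from 62.8 to 226 TPM (median 177) in WT vehicle and from 79.4 to 184 TPM (median 122) in WT IMN. For Brd1+/- mice the range was 127 to 187 TPM (median 150.1) with vehicle and 56.3 to 164 TPM (median 151) with IMN. In WT mice 9 of 10 IMN libraries were below the vehicle median, whereas in Brd1+/- mice 4 of 9 were and the medians nearly coincided. The log2 difference was -0.29 over both genotypes (SE 0.14, 95% interval -0.57 to -0.01, limma adjusted p = 0.496). It was -0.36 in WT mice (SE 0.21, exact permutation p = 0.128, two-sided) and -0.23 in Brd1+/- mice (SE 0.17, exact permutation p = 0.258, two-sided). Single libraries moved these values: without WT vehicle replicate 1 the difference was -0.555 in WT mice (adjusted p = 0.196) and -0.38 over both genotypes (adjusted p = 0.147), and without Brd1+/- IMN replicate 6 it was -0.08 in Brd1+/- mice (adjusted p = 0.984). Both lowest Junb values, in WT vehicle replicate 1 and Brd1+/- IMN replicate 6, came from libraries with high oligodendrocyte sums (2625 and 3161 TPM).

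Jund, the steadily expressed Jun gene, had the narrowest spread for its mean (81.1 TPM, SD 11.2, n = 36). It ran from 72.5 to 106 TPM (median 90.8) in WT vehicle and from 61.5 to 96.1 TPM (median 75.4) in WT IMN. Brd1+/- ranges were 64.6 to 103 TPM (median 81.6) and 60.0 to 89.3 TPM (median 77.8). In WT mice 4 of 10 IMN libraries lay below every vehicle library. Over both genotypes the log2 difference was -0.18 (SE 0.060, 95% interval -0.30 to -0.06, limma adjusted p = 0.217), with 17 of 19 IMN libraries below their own vehicle mean. It was -0.26 in WT mice (SE 0.085, exact permutation p = 0.0105, two-sided) and -0.11 in Brd1+/- mice (SE 0.081, exact permutation p = 0.206, two-sided), the latter -0.07 without Brd1+/- IMN replicate 6 or without Brd1+/- vehicle replicate 7.

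Atf3 reached at most 1.25 TPM in any library, with group medians between 0.313 and 0.461 TPM. In WT vehicle it ran from 0 to that value, the widest range of the 4 groups. The log2 difference with IMN over both genotypes was 0.08 (SE 0.13, 95% interval -0.19 to 0.34, limma adjusted p = 0.910), and at this level the added 0.5 TPM shrinks fold changes.

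The 8 genes were also counted within each genotype. In Brd1+/- mice 0 of 8 passed an adjusted p of 0.05 (background 0.00782% of genes). Fos, Fosb and Fosl2 reached an unadjusted p under 0.05 as lower, where 2.40% of all genes did, and none as higher (background 3.12%). In WT mice 0 of 8 passed (background 0% of genes), and Fos, Fosb, Fosl2 and Jund reached the unadjusted level as lower (background 4.57%), with none as higher (background 2.03%). The medians of the 8 log2 differences were -0.17 in Brd1+/- and -0.29 in WT mice, beside 0.01 and -0.01 for all genes tested. The 32 exact tests of the 8 genes in the 4 comparisons of single groups were not adjusted for their number.

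The difference between the genotypes in their response was tested as an interaction. None of the 8 passed (background 0% of genes), and 0 reached an unadjusted limma p under 0.05. The interaction was -0.09 for Fos (95% interval -0.46 to 0.28), -0.10 for Fosb (-0.89 to 0.68), 0.07 for Fosl2 (-0.42 to 0.56) and 0.14 for Junb (-0.43 to 0.70). The largest was that of Jund at 0.15 (-0.09 to 0.39). Each of these intervals is wider than the IMN difference of its gene over both genotypes. A different response of the genotypes was therefore not detected and is not shown to be absent. Without WT vehicle replicate 1 the interaction was 0.22 for Fosl2 and 0.33 for Junb. The sign turned for Fos and Fosb without it (0.02 and 0.18) and for Fosl2 with cell-type scores in the fit (-0.10).

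Brd1+/- and WT mice were compared to see whether reduced Brd1 moves these genes. None of the 8 passed with vehicle (background 0% of genes), with IMN (background 0%) or over both treatments (background 0.00391%, which is Brd1 alone), and 0 reached an unadjusted limma p under 0.05 in any of these. Over both treatments the log2 differences, Brd1+/- minus WT, ran from -0.23 for Fosb (SE 0.19, 95% interval -0.62 to 0.16) to 0.08 for Jun (SE 0.13, 95% interval -0.19 to 0.35). Without WT vehicle replicate 1 the difference of Fosb was -0.36, which reached an unadjusted limma p under 0.05 (adjusted p = 1.00). For Fos it was 0.03 (SE 0.091, 95% interval -0.16 to 0.21), and its sign turned to -0.03 without WT vehicle replicate 1. With vehicle the smallest p was that of Jund: 8 of 9 Brd1+/- values lay under the mean of WT vehicle, for a log2 difference of -0.15 (SE 0.083, exact permutation p = 0.0906, two-sided). With IMN the mean Jund levels were 76.1 TPM in Brd1+/- and 76.4 TPM in WT mice, a log2 difference of -0.00 (SE 0.083) whose sign varied with the setting.

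The 8 genes were next followed from mouse to mouse, as log2(TPM + 0.5) with each group's mean removed, over 36 libraries. Of 28 pairs of genes, 12 passed an adjusted p of 0.05 for Pearson's r, and all 12 had positive r. Fosb and Junb were the closest pair, with r = 0.79 and Spearman's rho = 0.72. Their permutation p of 1e-05 is the smallest that 100000 draws can give (adjusted 0.00014), and r was 0.62 without the 2 libraries farthest from the median of Fosb. Within the 4 groups their r ran from 0.70 to 0.97.

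Fos joined this set, with r = 0.69 to Junb (rho 0.61, adjusted permutation p = 0.00014, 0.54 without the 2 farthest libraries) and r = 0.68 to Fosb (rho 0.61, adjusted permutation p = 0.00091, 0.53 without them). Fosl2 went with Fosb at r = 0.71 (rho 0.73, adjusted permutation p = 0.00112, 0.75 without them) and with Fos at r = 0.60 (rho 0.50, adjusted permutation p = 0.00299, 0.47 without them). Its r to Junb was 0.49 (rho 0.47, adjusted permutation p = 0.0413, 0.28 without them), with 0.29 and 0.10 within the IMN groups. Fosb and Fosl2 had r = 0.96 within WT vehicle and 0.95 within Brd1+/- vehicle, but 0.50 and 0.36 within the IMN groups, a contrast that was not tested. In each vehicle group 1 library was lowest for both genes. These were WT vehicle replicate 1 (9.60 and 10.6 TPM) and Brd1+/- vehicle replicate 5 (17.4 and 12.1 TPM). The r within groups was not computed without these libraries. Jund went with Junb at r = 0.68 (rho 0.60, adjusted permutation p = 0.000187, 0.57 without the 2 farthest libraries), yet with r = -0.03 within Brd1+/- vehicle.

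Jun and Fosl1 stood outside the set. The r of Jun to the 7 others lay between -0.03 (Fosl2) and 0.34 (Fosb), and that of Fosl1 between -0.02 (Junb) and 0.32 (Jun), and no pair with either gene passed. Atf3 had r of 0.45 to 0.50 to Fos, Fosb, Fosl2 and Junb, which passed for Pearson's r but not for Spearman's rho (adjusted permutation p from 0.105 to 0.332). After the libraries were rescaled to a common median ratio, 6 of the 28 pairs passed.

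**Figure D3:**
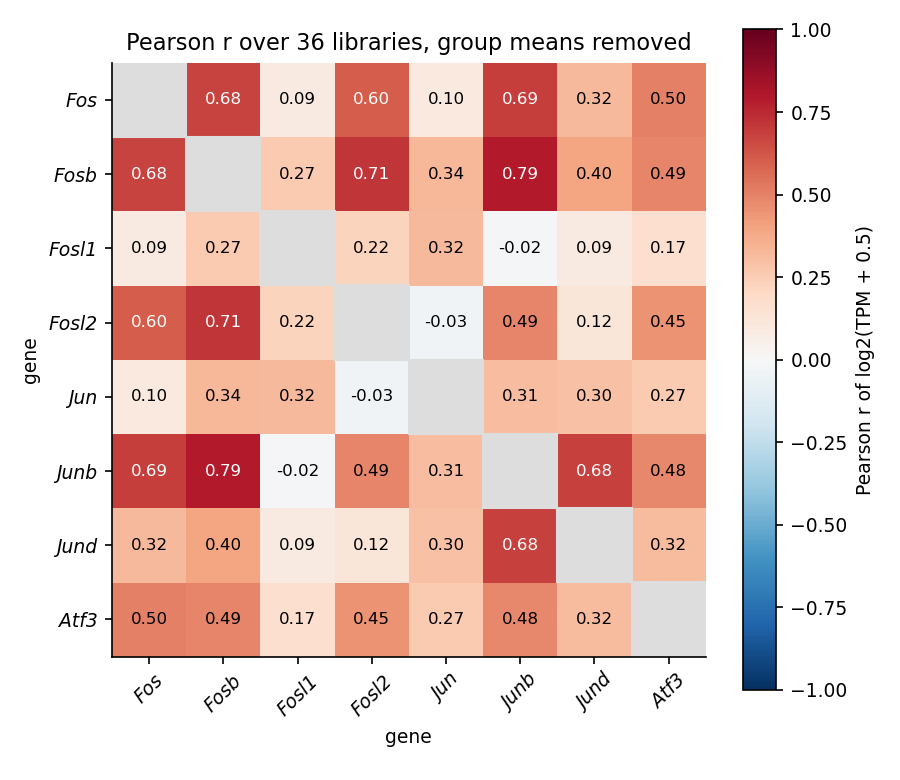
Pearson's r between the 8 AP-1 genes (both axes) over 36 libraries, on log2(TPM + 0.5) with group means removed, coloured from -1 to 1. Fos, Fosb, Fosl2 and Junb form a block with r from 0.49 (Fosl2 with Junb) to 0.79, and the rows of Jun and Fosl1 stay at or below 0.34.

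**Figure D4:**
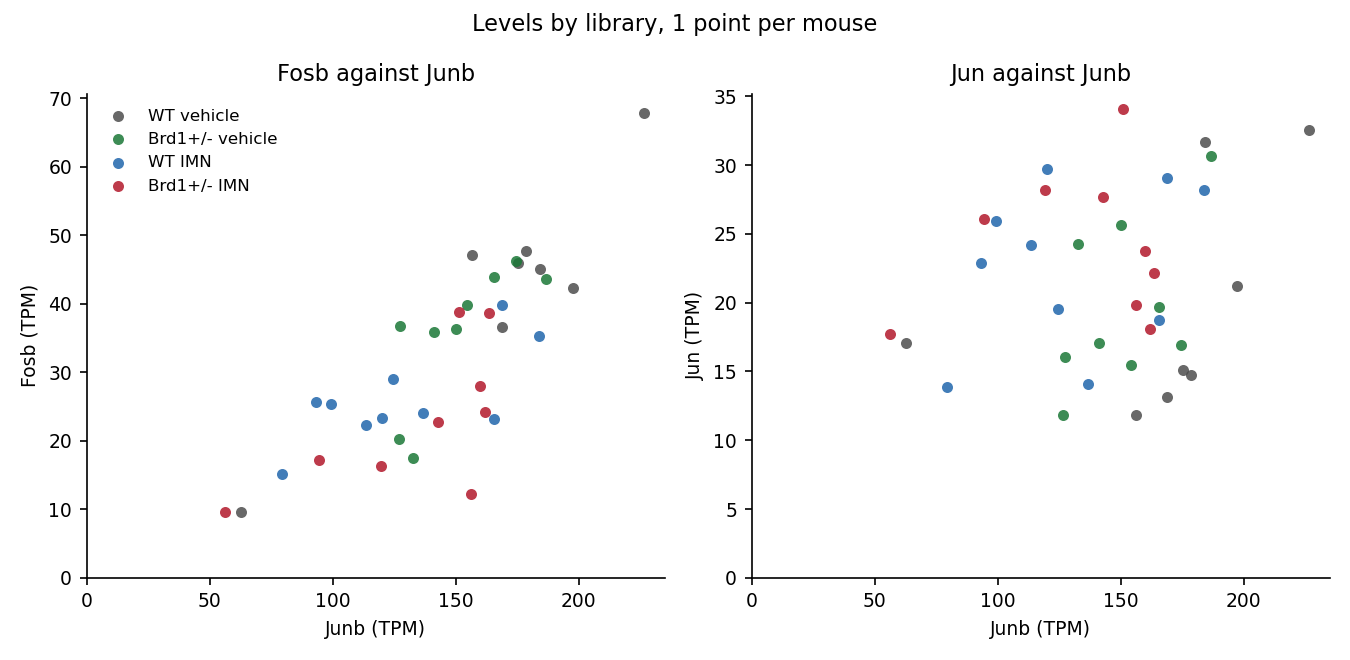
TPM of Fosb (left, y axis) and Jun (right, y axis) against TPM of Junb (x axes), with 1 point per mouse coloured by group and all axes starting at 0. Fosb is higher where Junb is higher, from 9.60 TPM in the lowest libraries to 67.8 TPM in the highest, whereas Jun spans its range at middle Junb levels.

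Apart from Jun and Fosl1, the AP-1 genes were higher in mice with high levels of other activity genes. Against the mean log2 level of 25 immediate-early genes outside AP-1, and with group means removed, r was 0.87 for Junb (rho 0.81), 0.81 for Fos (rho 0.78) and 0.74 for Fosb (rho 0.68), with r of 0.79, 0.75 and 0.56 without the 2 libraries farthest from the median of that score. The adjusted permutation p, over 16 such relations, was 8e-05, 8e-05 and 0.000213. The AP-1 genes and the 25 genes were chosen with earlier results of these data known, so these values are a description. For Jund r was 0.58, for Fosl2 0.58 and for Atf3 0.53, while it was 0.12 for Jun and 0.06 for Fosl1. Against the mean log2 level of the 7 oligodendrocyte markers, r was -0.62 for Junb (rho -0.53, adjusted permutation p = 0.00141), -0.55 for Fosb (rho -0.47, adjusted permutation p = 0.00343) and -0.47 for Fosl2 (rho -0.39, adjusted permutation p = 0.0131). Without the 2 libraries farthest in the oligodendrocyte score these were -0.56, -0.46 and -0.29. The same relation gave r = -0.32 for Fos and 0.05 for Jun, and 0.38 for Fosl1 (rho 0.33, adjusted permutation p = 0.0574, 0.38 without the 2 farthest libraries).

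The oligodendrocyte markers lay on the positive side with IMN (7 of 7 genes above 0 over both genotypes, 0 called, median log2 difference 0.37). Their sum ran from 171 to 2625 TPM in WT vehicle, 218 to 1651 in Brd1+/- vehicle, 211 to 3230 in WT IMN and 204 to 3161 in Brd1+/- IMN, and no marker was at 0 in all libraries. With the oligodendrocyte score as a term of the fit, an alternative chosen after seeing the data, the log2 difference with IMN over both genotypes was -0.33 for Fos, -0.53 for Fosb, -0.36 for Fosl2 and -0.21 for Junb. Markers of the other cell types had medians between -0.22 (striatal) and 0.04 (endothelial) with IMN, and none of their genes was called.

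By the likeness of their pattern over 36 libraries, group means removed, the genes nearest to each AP-1 gene were taken from 17709 others. For Fos they were Nr4a1, an orphan nuclear receptor and immediate-early gene (r = 0.84), Stk40 (0.79) and Egr1, a zinc finger immediate-early factor (0.72). For Junb they were Egr4, another EGR factor (0.95), Dyrk3 (0.94) and Marcksl1 (0.89). For Fosb they were Irs2, an adaptor of the insulin receptor (0.86), Phf13 (0.85) and Dbn1, the actin-binding drebrin of dendritic spines (0.85). For Fosl2 they were Dio2, the enzyme that activates thyroid hormone (0.81), Pnmal2 (0.79) and Lonrf1 (0.79). Jun had Timm29, Fam102b and Vegfd (0.86 to 0.87), Jund had Prr7, Gm10443 and Gm10175 (0.86 to 0.88), and Fosl1 had Crkl, Gtf3c4 and Srd5a1 (0.66 to 0.68). For scale, the 99th percentile of r over all 17709 genes was 0.77 for Junb, 0.74 for Jun and 0.72 for Fosb and Jund. It was 0.65 for Fosl2 and 0.54 for Fos and Fosl1.

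The proteins and genes around AP-1 were then read in the comparison of IMN with vehicle over both genotypes. Among 12 other bZIP proteins that pair with Fos or Jun, 0 passed and the median was -0.02. Differences were negative for 7 and positive for 5, beside 13051 and 12521 of all genes tested. Batf3 had -0.61 (SE 0.22, limma adjusted p = 0.320) at group medians of 0.384 to 1.21 TPM, Jdp2, a repressor that pairs with Jun, -0.25 (SE 0.098, adjusted p = 0.364) and Mafk 0.18 (SE 0.10, adjusted p = 0.625). Of 17 factors and coactivators that act at Fos and Jun promoters, 0 passed and the median was -0.06. The smallest p values were those of Srf, the serum response factor, at -0.24 (SE 0.072, limma adjusted p = 0.154), Mrtfb, its actin-sensing coactivator, at -0.13 (SE 0.059, adjusted p = 0.458) and Mef2c, a neuronal MADS factor, at 0.56 (SE 0.25, adjusted p = 0.466). Of 16 kinases of the ERK, JNK, p38, RSK and CaMK cascades, 0 passed and the median was -0.06. Mapk14, which encodes p38α, had -0.19 (SE 0.063, limma adjusted p = 0.219), Mapk3, which encodes ERK1, -0.37 (SE 0.13, adjusted p = 0.312) and Rps6ka5, the histone kinase MSK1, 0.17 (SE 0.083, adjusted p = 0.525).

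Among the other immediate-early genes some passed the test. This list was chosen with earlier results of these data known, so its counts are a description. Of 25, 5 fell and 0 rose (background 0.184% of genes called lower and 0.0899% called higher). Negative differences were found for 22, beside 13051 of all 25572 genes, and the median was -0.37. Npas4, a neuronal factor induced by calcium, fell by 0.94 on the log2 scale (SE 0.16, limma adjusted p = 0.00318), with 19 of 19 IMN libraries below their own vehicle mean and group medians of 36.5 and 31.3 TPM with vehicle against 18.9 and 18.3 TPM with IMN. Egr1 fell by 0.66 (SE 0.13, limma adjusted p = 0.00939) from medians of 291 and 312 TPM to 195 and 187 TPM. Arc, which acts on AMPA receptors at synapses, fell by 0.67 (SE 0.13, limma adjusted p = 0.0108) from 284 and 277 TPM to 184 and 133 TPM, and its adjusted p was 0.0504 with the replicate number as a block. Gadd45b, a stress and demethylation factor, and Trib1, a pseudokinase, are the other 2: they fell by 0.43 and 0.45 on the log2 scale (adjusted p = 0.0305 and 0.0382), and passed in 31 and 20 of 37 fits that left out 1 library or, in 1 of them, 2. Trib1 did not pass with that block (0.0929) or with the oligodendrocyte and endothelial scores in the fit (0.0603).

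Of 18 genes described as AP-1 targets or late-response genes, 17 were tested. That list too was chosen with earlier results known. A total of 2 fell, 0 rose (background 0.184% and 0.0899%), 13 had negative differences and the median was -0.15. Nptx2, a secreted pentraxin of excitatory synapses, fell by 0.66 on the log2 scale (SE 0.11, limma adjusted p = 0.00279), with 19 of 19 IMN libraries below their own vehicle mean. Inhba, the activin subunit, fell by 0.62 (SE 0.14, limma adjusted p = 0.0425), which passed in 11 of the 37 fits with libraries left out, and did not pass with the replicate block (0.0632) or with no filter on low values (0.0595). Bdnf, the neurotrophin, had -0.53 (SE 0.15, limma adjusted p = 0.136), and without WT vehicle replicate 1 -0.62 (adjusted p = 0.0178). It passed in 2 of the 37 fits with libraries left out (adjusted p up to 0.220).

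**Figure D5:**
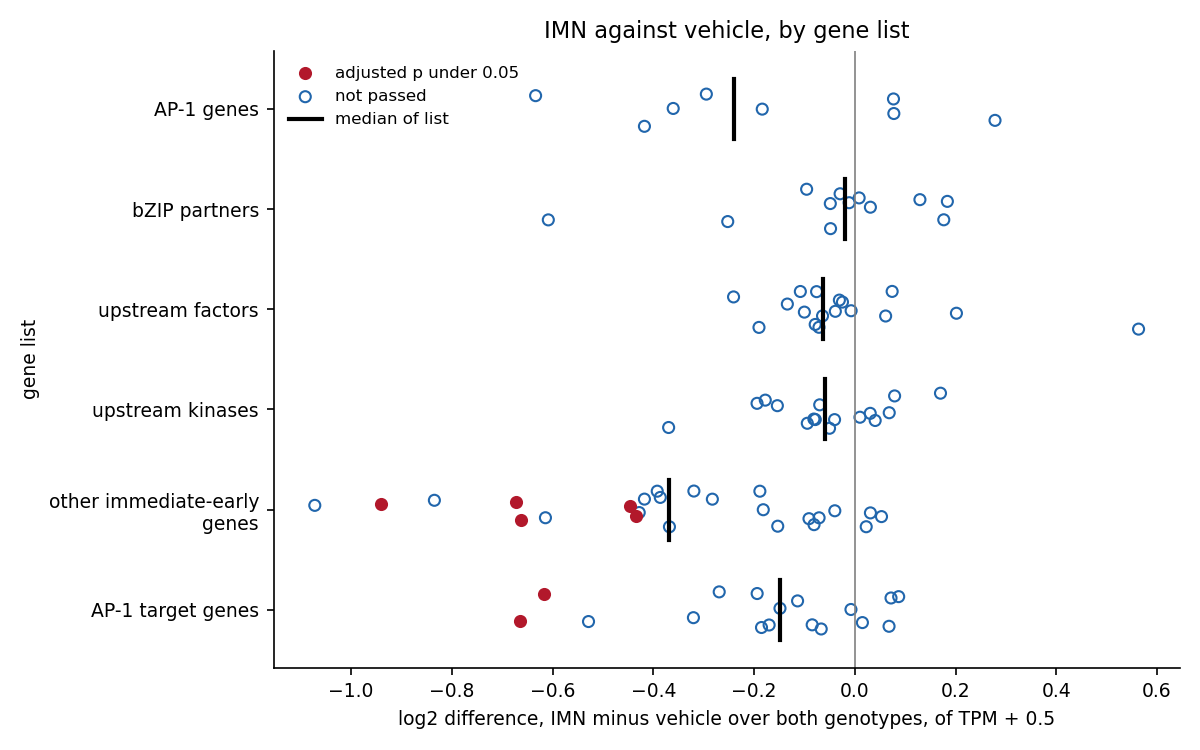
Log2 difference of TPM + 0.5, IMN minus vehicle over both genotypes (x axis), with 1 point per gene for the AP-1 genes and 5 lists around them (y axis), a line at each list's median and filled points for an adjusted p under 0.05. Filled points are found among the other immediate-early genes (5) and the AP-1 targets (2), and the medians of the partners, upstream factors and kinases lie between -0.06 and -0.02.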

How the data were processed

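Per the labels and the study's methods, single-end BGISEQ-500 reads were checked with FastQC, trimmed with Trimmomatic, aligned to GRCm38 with HISAT2 2.1.0 and quantified with StringTie 1.3.4. The authors deposited TPM, 1 value per gene and library; columns totalled 999727.1 to 999889.0, and 0 columns were left unmatched. TPM keep no depth, so error comes from the spread between mice. Strand use is not stated, so antisense reads cannot be told apart.

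Groups came from the labels. log2(TPM + 0.5) was fitted in limma 3.58.1 (R 4.3.3) with an intensity trend, for genes at 0.1 TPM or more in at least 8 libraries, with Benjamini-Hochberg adjustment over all 25572 genes. Single-group comparisons used their own 2 groups. The pooled IMN fit had genotype as a term, the pooled genotype fit treatment. The fit was first tested on simulated data with known changes. Exact permutation tests ran over all arrangements of the libraries (24310 to 92378), and correlations were permuted within groups with 100000 draws (Python 3.11.15, scipy 1.17.1). Marker lists were scored as mean log2(TPM + 0.5).

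Named were the AP-1 genes, Brd1, the 3 genes of smallest p per list in the pooled IMN fit and the 3 genes of nearest pattern (mean of at least 1 TPM). Gadd45b and Trib1 were named after their values were seen. The members and lists were chosen with earlier results of these data known.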

Additional observations from a re-analysis of the deposited data

Results flagged for a closer look

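In 6 of the 32 combinations of an AP-1 gene and a group, 1 library lay far from the others by Dixon's criterion at the 95% level, where chance alone flags about 1 in 20. WT vehicle replicate 1 accounts for 3 of them, as the lowest of its group for Fosb (9.60 TPM), Fosl2 (10.6 TPM) and Junb (62.8 TPM), and it is the library with the highest oligodendrocyte sum of its group. The IMN differences of these 3 genes without it are given beside their values. Brd1+/- vehicle replicate 5 was lowest for Fosl2 (12.1 TPM). WT IMN replicate 6 was highest for Fos (61.8 TPM) and WT vehicle replicate 7 for Fosl1 (4.81 TPM).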

How the results depend on the processing

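The count of AP-1 genes past an adjusted p of 0.05 stayed at 0 in every comparison under both other pseudocounts, both other filters, median-ratio scaling, quantile normalization, the cell-type score covariates and the fit of all 36 libraries. Array weights gave 3 in the pooled IMN comparison. Leaving out libraries gave 0 to 3 there (3 without WT vehicle replicate 1, and 3 without it and Brd1+/- vehicle replicate 6, chosen after seeing the data). It gave 0 to 1 for IMN in WT mice and 0 for IMN in Brd1+/- mice. For the genotypes with vehicle, the genotypes over both treatments and the interaction, only those 2 libraries were left out, with 0 calls. For the genotypes with IMN no library was left out. Over all genes the pooled IMN comparison called 70, with 191 under array weights and 37 with the replicate block. Atf3 has no value under the filter at a mean of 1 TPM. Median-ratio scaling moved the correlated pairs from 12 to 6.

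Replicate numbers did not pair the libraries: of 34 same-numbered pairs 1 correlated above 0.1, with a range of -0.26 to 0.26, and the replicate block gave 0 calls for the AP-1 genes in every comparison. For the other named genes it took Arc (adjusted p = 0.0504), Trib1 (0.0929) and Inhba (0.0632) over the threshold. Trib1 also lost its call with the oligodendrocyte and endothelial covariates (0.0603), and Inhba with no filter (0.0595).

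Signs turned only for small differences. Jund between genotypes with IMN had 0.0133 after quantile normalization, 0.0389 with array weights and 0.0055 with the covariates. In Brd1+/- mice with IMN, Fosl1 had -0.0381 with array weights and -0.1039 with the covariates, and Atf3 -0.0297 with a pseudocount of 0.1 and -0.0046 with the covariates. The interaction of Fosl2 was -0.1012 with the covariates. Over 18 fits with libraries left out, Fosl1 with IMN in Brd1+/- mice ran from -0.0512 to 0.0810. Atf3 ran from -0.0221 to 0.1578 in Brd1+/- and -0.0056 to 0.2528 in WT mice. Only 3 such fits were run for the next values. In them Fos between genotypes ran from -0.0263 to 0.0461, and the interaction from -0.1355 to 0.0229 for Fos and -0.0892 to 0.1892 for Fosb. The causes were not tested. Depth is unknown, which limits Atf3 most.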
